A study of Mus musculus with 4 samples.

Results

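Small and large heat shock proteins of skeletal muscle were followed through a fractionation of the tissue. The members were 10 genes chosen by name from the 16472 genes of the deposited table, 6 that encode small heat shock proteins (Hspb1, Hspb2, Hspb6, Hspb7, Hspb8 and Cryab) and 4 that encode large ones (Hspa8, Hspa1a, Hsp90aa1 and Hsp90ab1), and all of them were present. Mitochondria had been prepared from skeletal muscle of WT (wild-type) mice by lysis and differential centrifugation, and RNA of 2 preparations of isolated mitochondria (SM-mito) and of 2 preparations labelled tissue minus mitochondria (SM-total) was sequenced. Both groups share tissue and genotype, and the labels give no agent, age or sex. The titles of the second group say total and a legend of the study speaks of total lysate, so it is not settled whether SM-total still contained its mitochondria. The sources used here do not say which muscles were taken, whether animals were pooled, or whether the replicates came from separate animals, and all p-values below therefore measure only the spread between these libraries, which may be technical. The methods of the study describe a treatment with digitonin and RNase A for mitochondria of the heart, and whether it was applied to muscle is not stated.

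Small heat shock proteins share a crystallin domain, assemble into large oligomers and hold unfolding proteins without using ATP. Hsp70 and Hsp90 proteins use ATP to refold such clients or to keep them in an active state, together with J proteins, BAG proteins and other co-chaperones. Muscle is rich in both kinds, which guard desmin, titin, myosin and the Z-disc during contraction, and the mRNAs of all 10 members come from the nucleus and are translated outside mitochondria. The comparison of SM-mito with SM-total thus asks how much of these cytosolic mRNAs stayed with the mitochondrial fraction.

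Values are normalized counts, that is read counts per gene divided by a size factor for each library and rounded by the authors. In SM-mito, 1 read was worth 9.049 normalized counts in replicate 1 and 5.059 in replicate 2, whereas in SM-total a normalized count stood for an estimated 7.05 reads. Between 94.1% and 95.3% of the reads of SM-mito lay on chromosome M, against 20.5% to 22.3% in SM-total, and all 37 genes of that chromosome were higher in SM-mito. Genes of the nucleus, without 17 nuclear copies of mitochondrial DNA, were left with 100924 and 181152 reads in SM-mito and with an estimated 11989623 and 11968682 in SM-total, so that the median gene tested rested on 5 and 10 reads in SM-mito. All 8 markers of myofibres were lower in SM-mito (summed level 243805 to 254249 in SM-total and 41226 to 42539 in SM-mito, median log2 fold change -1.93), all 5 markers of fibroblasts were higher (1544 to 1645 and 9954 to 18364), and so were all 4 tested of the 5 macrophage markers (107 to 131 and 723 to 819). All 5 endothelial markers lay lower in SM-mito without overlap (465 to 475 and 95 to 99, median -2.59), and 1 of them passed the test with limma and 4 with edgeR or DESeq2. All 5 hepatocyte markers lay higher in SM-mito without overlap (43 to 241 and 2276 to 11284), and 2 of them passed the test with limma and 5 with edgeR or DESeq2. None of 4 smooth muscle markers tested passed it (326 to 370 and 212 to 345, with Cnn1 at 0 in both SM-mito libraries, unadjusted p under 0.05 for 0 of them, and 0 called by edgeR or DESeq2). The part that these other cells had in the results below was not tested.

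The members that were most abundant in muscle were Hsp90ab1, the constitutive cytosolic Hsp90, Hspb6, a small heat shock protein of striated and smooth muscle, Cryab, the alpha B crystallin that guards desmin and titin, and Hspa8, the constitutive Hsp70. Per kilobase of exon, the level in SM-total was 708 and 711 normalized counts for Hsp90ab1, 359 and 372 for Hspb6, 268 and 306 for Cryab, 241 and 262 for Hspa8 and 193 and 216 for Hspb8. These 5 kept the same order in both libraries without overlap between neighbours, the nearest being Cryab and Hspa8. This order counts reads assigned to the gene itself, and the place of Hspa8 is uncertain, since with 7 near-identical genes its 1036 and 1125 normalized counts become 1713 and 1881. Hspb7 (107 and 96.4) and Hspb1 (103 and 132) changed places between the replicates and did not differ beyond their spread. Hspb2 (55.2 and 52.8) followed, and Hsp90aa1 (19.8 and 23.7) and Hspa1a (4.72 and 21.9), whose values overlapped, came last. Hsp90ab1 and Hspb6 also led in both SM-mito libraries, with 302 and 532 for the first and 154 and 204 for the second.

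Of the 10 members, 2 passed the test as lower in SM-mito, Hspb6 and Hspb8, and none passed it as higher (limma, with p-values of all 6916 genes in the fit adjusted by Benjamini-Hochberg, where 9.30% were called lower and 7.32% higher; by unadjusted p, 5 members were lower and 0 higher; edgeR and DESeq2 called 0 higher). In 8 members both SM-mito values lay below both SM-total values, as they did in 43.7% of all genes tested, in Hsp90aa1 both lay above, as in 25.5%, and only the values of Hspa1a overlapped. Over all genes tested, groups were apart in 69.1% and the log2 fold change was below 0 in 63.1%, against 9 of 10 members in each case. The median log2 fold change was -1.21 over the members, -1.45 over the small and -0.96 over the large ones, beside -0.44 over all genes tested. Among more abundant genes, with a mean of at least 100, the medians lay closer, at -1.04 over the 7 members left and -0.73 over all genes. Hspb2 and Hspa1a passed the filter (a mean of at least 20) only through SM-total, with means of 7.5 and 12 in SM-mito. Their negative sign was thus favoured in advance. Both enter the medians over genes with a mean of at least 20 and the count below 0, and Hspb2 enters the count of groups apart. SM-mito was prepared by lysis, so how much cytosolic mRNA stayed with it, which cells it came from and the RNA per cell cannot be told apart. With 2 libraries a group an exact permutation test cannot give a p below 0.333, so single values carry no test of that kind.

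**Figure D1:**
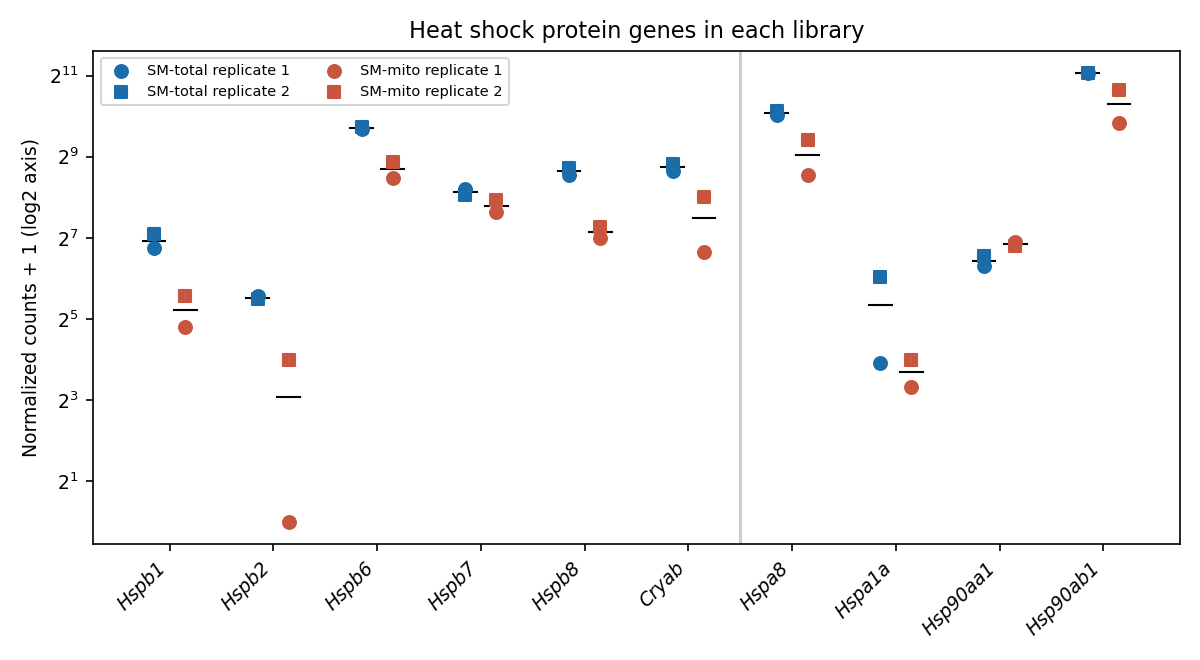
Normalized counts plus 1 (vertical log2 axis) of the 10 members in each library; blue stands for SM-total and red for SM-mito, circles for replicate 1, squares for replicate 2 and black bars for group means. Both red points lie below both blue points for all 6 small heat shock proteins, Hspa8 and Hsp90ab1, above them for Hsp90aa1, and between or below them for Hspa1a.

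Hspb6 (also called Hsp20), which binds actin-associated and signalling proteins, had 825 and 855 normalized counts in SM-total and 353 and 470 in SM-mito, the latter from 39 and 93 reads. Its gene (ENSMUSG00000036854) lies at chr7:30552178-30555443 of GRCm38 on the forward strand. With the deposited scaling, the SM-mito values were near 0.5 of those of SM-total (ratio 0.490), and the log2 fold change was -1.04 (SE 0.22, limma adjusted p = 0.0479). With each library scaled to its total of nuclear genes, which moved the median of all genes to 0.43, it was -0.15 (limma adjusted p = 0.666). In ppm of nuclear reads the groups overlapped, at 485 and 504 in SM-total and 386 and 513 in SM-mito. Hspb8, which works with the co-chaperone Bag3 in the selective autophagy of damaged muscle proteins, had 376 and 422 in SM-total and 127 and 152 in SM-mito, from 14 and 30 reads (ENSMUSG00000041548, chr5:116408491-116422864, reverse strand). Its decrease was the steeper one, with a log2 fold change of -1.51 (SE 0.21, limma adjusted p = 0.0235). Under scaling to nuclear genes Hspb8 was at -0.62 (limma adjusted p = 0.115). Without SM-total replicate 1 or 2 neither gene passed the test (limma adjusted p = 0.328 and 0.377 for Hspb6, 0.146 and 0.237 for Hspb8), while without SM-mito replicate 1 and without SM-mito replicate 2 both passed, and 5 and 7 members were called lower. Over all 15 alternatives Hspb8 was called lower in 11 and Hspb6 in 8. Scaling to all genes, which called 6694 of the 6916 genes lower, is among these alternatives. It gave the lowest adjusted p of both genes (limma, 8.58e-05 and 0.000114), which thus says little about them.

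Hspb1 (Hsp25 in the mouse), a stress-phosphorylated partner of actin filaments, was next to these genes but missed the threshold. It had 106 and 136 normalized counts in SM-total and 27 and 46 in SM-mito, where only 3 and 9 reads supported it. The log2 fold change was -1.74 (SE 0.37, limma adjusted p = 0.0508). Of its 15 alternatives 7 called it lower. Scaling to all genes, which called most genes lower, is 1 of these and gave the lowest adjusted p (limma, 8.53e-05). The transcript (ENSMUSG00000004951, chr5:135887919-135889563, forward strand) is shared over 72.6% of its length at 95% identity or more with the pseudogene Hsp25-ps1, which had 47 and 60 in SM-total and 9 and 5 in SM-mito, and with Gm9817 on the opposite strand. When the 3 genes were summed, a choice made after seeing the data, the values were 155 and 198 against 36 and 51, and the sum passed as lower (log2 fold change -2.01, limma adjusted p = 0.0274).

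Cryab and its head-to-head neighbour Hspb2, a partner of the myotonic dystrophy kinase, overlap by 1030 bp on opposite strands of chromosome 9, of which 252 bp are exonic in both. Cryab (ENSMUSG00000032060, chr9:50751325-50756636, forward strand) had 397 and 453 in SM-total and 100 and 258 in SM-mito, and the spread between the SM-mito libraries was as large as 2.58-fold (log2 fold change -1.39, SE 0.51, limma adjusted p = 0.135). Hspb2 (ENSMUSG00000038086, chr9:50751078-50752354, reverse strand) had 46 and 44 in SM-total and 0 and 15 in SM-mito. Only 3 reads in all lay behind the latter, and the fitted log2 fold change of -3.52 (SE 1.59, limma adjusted p = 0.192) depends on the pseudocount. The pooled ratio of SM-mito to SM-total was 0.216 with an exact Poisson interval of 0.0446 to 0.632 (95%, counting error of the SM-mito reads only). All intervals here cover counting error only, and no molecular identifiers were used to tell copies of 1 molecule apart. Replicate reads of nuclear genes spread wider than counting error, with a chi-square per degree of freedom of 4.59 in SM-mito and 7.22 in SM-total (estimated reads). The intervals are thus too narrow to test a group difference. Because reads that overlap several genes were left out of the counting, and the strand setting was not stated, both genes may be undercounted over their shared exons.

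Hspb7, the small heat shock protein of heart and skeletal muscle that binds filamin, differed from its relatives in size of change. It had 295 and 267 in SM-total and 199 and 243 in SM-mito, from 22 and 48 reads, and the log2 fold change was -0.35 (SE 0.21, limma adjusted p = 0.290), close to the median of all genes (ENSMUSG00000006221, chr4:141420779-141425311, forward strand). When each library was scaled to its total of nuclear genes, which moved the median of all genes to 0.43, the sign of Hspb7 turned to 0.54. Ratios within a library do not depend on that scaling. Hspb8 stood at 1.27 and 1.58 times Hspb7 in SM-total and at 0.638 and 0.626 times in SM-mito, and Hspb1 at 0.359 and 0.509 times Hspb7 in SM-total and 0.136 and 0.189 times in SM-mito, so in both pairs the groups did not overlap. Hspb6 over Hspb8 was 2.19 and 2.03 in SM-total and 2.78 and 3.09 in SM-mito. Cryab over Hspb6 overlapped between the groups, at 0.481 and 0.530 in SM-total and 0.283 and 0.549 in SM-mito. The pairs were picked after their values were seen and carry no test.

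Among the large members, none passed the test (limma, 1 of 4 with an unadjusted p under 0.05, and 0 of 4 by edgeR and DESeq2). Hsp90ab1 (ENSMUSG00000023944, chr17:45567775-45573271, reverse strand) had the best supported values, 2124 and 2131 in SM-total and 905 and 1594 in SM-mito, from 100 and 315 reads. Its SM-total libraries differed by less than 1%, and the log2 fold change of -0.82 (SE 0.32, limma adjusted p = 0.152) carried mainly the spread of SM-mito. Under scaling to nuclear genes the sign turned to 0.07. The values of the stress-responsive isoform Hsp90aa1 (ENSMUSG00000021270, chr12:110690605-110702728, reverse strand) lay the other way, at 78 and 93 in SM-total and 118 and 111 in SM-mito, the latter from 13 and 22 reads (log2 fold change 0.42, SE 0.23, limma adjusted p = 0.255). The pooled ratio of Hsp90aa1 was 1.33 with a counting interval of 0.925 to 1.85, so its direction is not settled. When libraries were scaled to all genes, the log2 fold change of Hsp90aa1 was -6.34 and passed as lower (limma adjusted p = 0.000116). Under scaling to nuclear genes it was 1.31 and passed as higher (limma adjusted p = 0.0327). Of its 16 alternatives 1 called it lower and 1 higher, so the calls went in opposite directions.

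The ratio of Hsp90aa1 to Hsp90ab1, free of library scaling, was 0.0367 and 0.0436 in SM-total and 0.130 and 0.0696 in SM-mito. Both SM-mito ratios lay above both SM-total ratios, with a 1.87-fold gap between the SM-mito libraries themselves. Hsp90aa1 shares 68.7% of its longest transcript at 95% identity or more with the pseudogenes Gm12346, Gm5844 and Gm5511. Its share of the reads on these 4 genes was 71.0% and 71.5% in SM-total and 72.2% (Wilson 95% interval 49.1% to 87.5%) and 57.9% (42.2% to 72.1%) in SM-mito, a difference not detectable at this depth, and the sum of the 4 genes was 110 and 130 against 163 and 191 (log2 fold change 0.56, limma adjusted p = 0.161). Hsp90ab1 shares only 54 nt in this way.

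Hspa8, the Hsp70 that uncoats clathrin and feeds chaperone-mediated autophagy, had 1036 and 1125 in SM-total and 371 and 683 in SM-mito, from 41 and 135 reads (ENSMUSG00000015656, chr9:40800984-40810087, forward strand). The log2 fold change was -1.10 (SE 0.35, limma adjusted p = 0.104). It has many processed pseudogenes, and 7 genes in the table cover at least 10% of its transcript at 95% identity or more. Hspa8 itself held 60.5% (Wilson 95% interval 59.6% to 61.3%) and 59.8% (59.0% to 60.6%) of the reads on these 8 genes in SM-total. In SM-mito it held 43.2% (33.7% to 53.2%) and 45.6% (40.0% to 51.3%), so that the counting intervals of the groups did not meet. These intervals leave out the spread between replicates, and the SM-total reads are estimates, so a group difference was not tested. Gm15459, the pseudogene with the most reads, had 300 and 343 in SM-total and 226 and 379 in SM-mito, and Gm8355 had 150 and 172 against 100 and 162. The values of both overlapped between groups, as did those of Gm6210 and Gm7232, while those of Hspa8 did not. Gm8337 (34 and 34 against 18 and 20) and Gm7899 (59 and 61 against 36 and 51) lay lower in SM-mito without overlap, like Hspa8. Gm8326 lay higher (6 and 5 against 9 and 10). Summed over the 8 genes the values were 1713 and 1881 against 859 and 1497, and the log2 fold change shrank to -0.66 (limma adjusted p = 0.215).

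**Figure D2:**
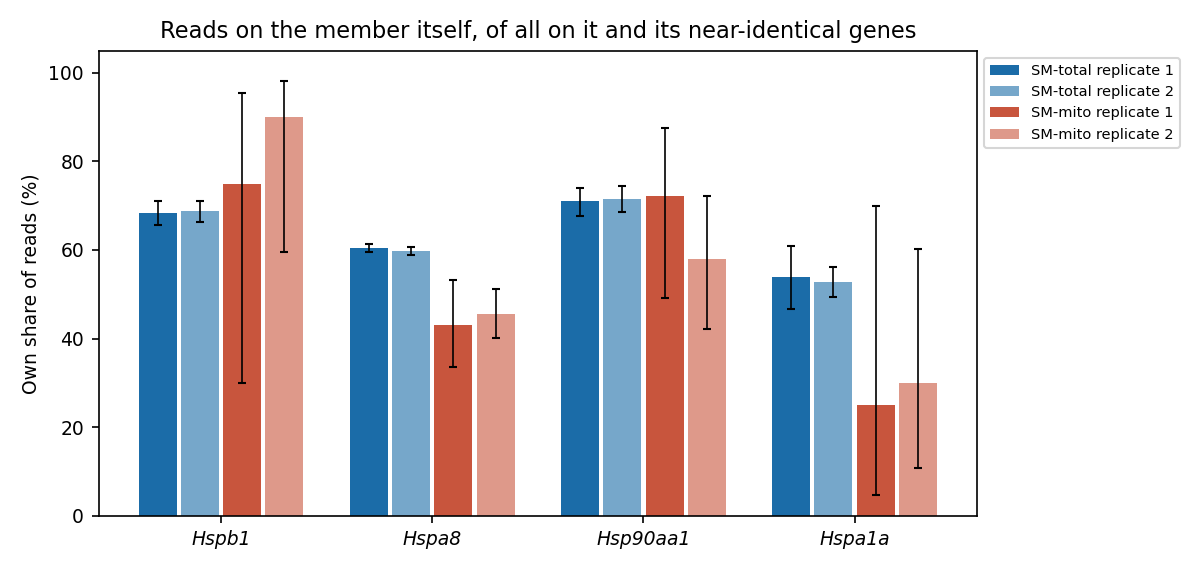
Share of reads (percent, vertical axis from 0) that lay on the member itself, of all reads on the member and its near-identical genes in the table, for 4 members; bars are libraries and lines are Wilson 95% intervals, which cover counting error only. Hspa8 held 60.5% and 59.8% in SM-total and 43.2% and 45.6% in SM-mito, whereas the wide intervals of Hspb1, Hsp90aa1 and Hspa1a in SM-mito rest on 4 to 38 reads.

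Hspa1a, the strictly heat-inducible Hsp70, had 14 and 65 normalized counts in SM-total and 9 and 15 in SM-mito, the latter from 1 and 3 reads (ENSMUSG00000091971, chr17:34969190-34972156, reverse strand). The values of the groups overlapped, and the pooled ratio was 0.329 with a counting interval of 0.0895 to 0.841. Its neighbour Hspa1b, which is 99.2% identical over 2201 nt, had 12 and 57 in SM-total and 27 and 35 in SM-mito (log2 fold change 0.21, limma adjusted p = 0.868; the sign turned to -0.87 without SM-total replicate 1). Reads that fit both genes were left out of the counting, so values of either gene rest on the stretches that differ.

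The replicates of SM-total differed 4.64-fold in Hspa1a and 4.75-fold in Hspa1b, and both were higher in replicate 2. Among the 6862 nuclear genes tested, these were the 4th and the 2nd largest excesses of replicate 2 over replicate 1, and Nr4a3 and Pck1 were the other genes among the first 4. The J protein genes Dnajb1 (8 and 21) and Dnaja1 (29 and 55), which encode the partners that load clients onto Hsp70, ranked 20 and 45. Other stress-responsive genes differed less, and the ratio of replicate 2 to replicate 1 was 1.28 for Hspb1, 1.19 for Hsp90aa1, 1.17 for Hsph1, 1.09 for Hspa8 and 0.975 for Bag3. This comparison of 2 libraries, chosen after the values were seen, carries no test. The summed adipocyte markers moved with it, from 64 in replicate 1 to 256 in replicate 2, while the hepatocyte markers were at 241 and 43, and the part of either was not tested. In SM-mito, Hspa1a and Hspa1b were at 9 and 27 in replicate 1 and at 15 and 35 in replicate 2.

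**Figure D3:**
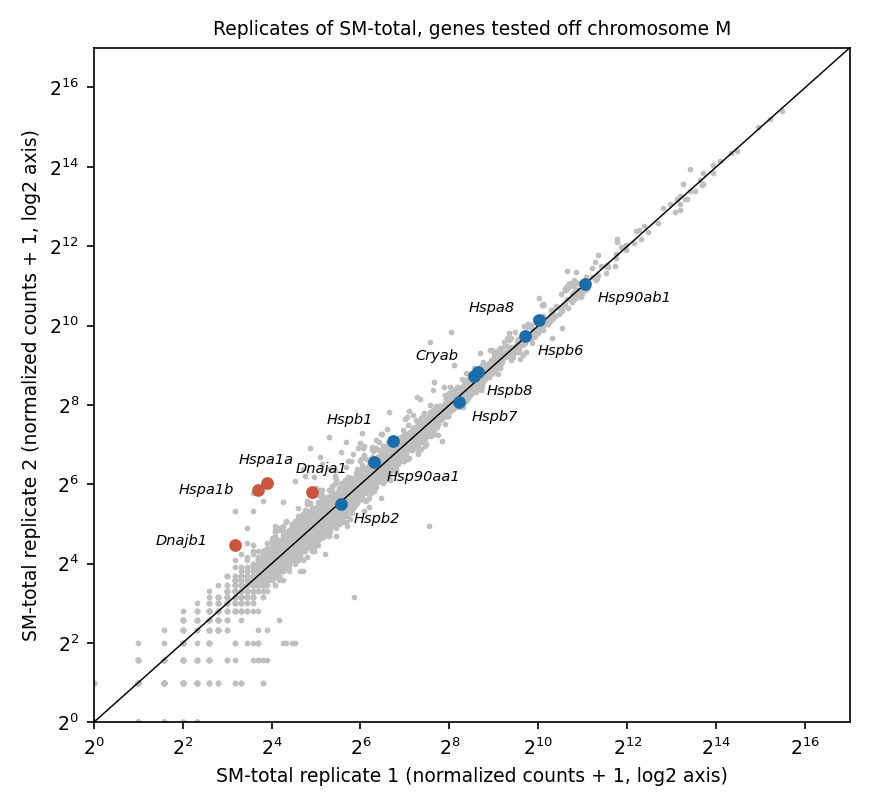
Normalized counts plus 1 of SM-total replicate 1 (horizontal) and replicate 2 (vertical), both on log2 axes, for the 6862 nuclear genes tested and the nuclear copies of mitochondrial DNA (grey); the line marks equal values. Hspa1a (14 and 65), Hspa1b (12 and 57), Dnajb1 (8 and 21) and Dnaja1 (29 and 55), in red, lie above the line, and the 9 other members, in blue, stay near it.

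Heat shock genes are induced when heat shock factor binds inverted repeats of GAA upstream of the start. The windows of 150 bases before the start were taken from RefSeq (GRCm38.p6), where 6 of 11 genes (the members and Hspa1b) were found, with 7 starts. They are shown for the inducible pair, whose SM-total replicates differed, and for Hspb1 and Hspb6, with matches to GAANNTTC in capitals. This word equals its own reverse complement, so a match counts for both strands, and 3.95% of 32851 windows of the same length hold it.
Hspa1a (chr17:34972157-34972306, reverse strand): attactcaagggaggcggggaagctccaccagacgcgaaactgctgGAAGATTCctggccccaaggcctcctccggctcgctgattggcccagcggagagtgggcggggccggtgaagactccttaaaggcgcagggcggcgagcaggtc
Hspa1b (chr17:34959239-34959388, reverse strand): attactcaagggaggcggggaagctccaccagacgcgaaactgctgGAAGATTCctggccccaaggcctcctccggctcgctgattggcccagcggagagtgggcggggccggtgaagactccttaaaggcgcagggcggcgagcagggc
Hspb1 (chr5:135887769-135887918, forward strand): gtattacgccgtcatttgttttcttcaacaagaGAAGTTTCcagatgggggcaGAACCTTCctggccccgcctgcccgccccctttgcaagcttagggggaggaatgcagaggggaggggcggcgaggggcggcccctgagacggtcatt
Hspb6, downstream start (chr7:30553151-30553300, forward strand): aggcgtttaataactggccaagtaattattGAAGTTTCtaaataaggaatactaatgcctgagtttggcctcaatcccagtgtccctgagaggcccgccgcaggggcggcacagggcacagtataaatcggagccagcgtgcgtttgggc

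The windows of Hspa1a and Hspa1b were equal in 149 of 150 bases, and each held the word once, beginning at -104 from the start. Hspb1 held it at -117 and -97 and the downstream start of Hspb6 at -120, together with TATAAA at -29 (7.57% of windows, either strand). No match was found in the windows of the upstream start of Hspb6, of Hspb7 or of Hspb8. The other orientation, TTCNNGAA (4.21% of windows), was in none of these 7 windows. A match describes letters only, and genes with and without it were among those lower in SM-mito.

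As a class, the 10 members held 3115 and 3293 ppm of the nuclear reads in SM-total, and 2418 (Wilson 95% interval 2133 to 2740) and 3914 (3637 to 4212) in SM-mito. The SM-mito libraries lay on either side of SM-total, so the share of the class as a whole did not separate the groups. Within it, the summed small over the summed large members was 0.629 and 0.638 in SM-total and 0.574 and 0.493 in SM-mito. The SM-mito ratios rested on 244 and 709 reads of all members. No counting interval was computed for them, so a difference beyond counting error was not tested. The scaling of the libraries decides how far a single member appears lower, as the values under other scalings show. The median of all genes was -0.17 after scaling to the upper quartile, -0.04 in edgeR, 0.01 in DESeq2, 0.43 after scaling to nuclear genes and -6.90 after scaling to all genes, which chromosome M fills. Between 7 and 9 of the 10 members lay below the median of all genes in every setting that tested all 10, and 5 of 7 with a stricter filter. A scaling moves all genes and their median nearly alike, so this count cannot show which scaling is right. All settings use the same 4 libraries, and by definition as many genes lie below a median as above it. Under scaling to nuclear genes, 7 members kept a negative sign, none passed as lower and Hsp90aa1 passed as higher. Of all genes called, 44.0% were higher with the deposited scaling, against 58.7%, 55.9%, 61.6%, 85.8% and 0.564% under these alternatives in the order given.

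**Figure D4:**
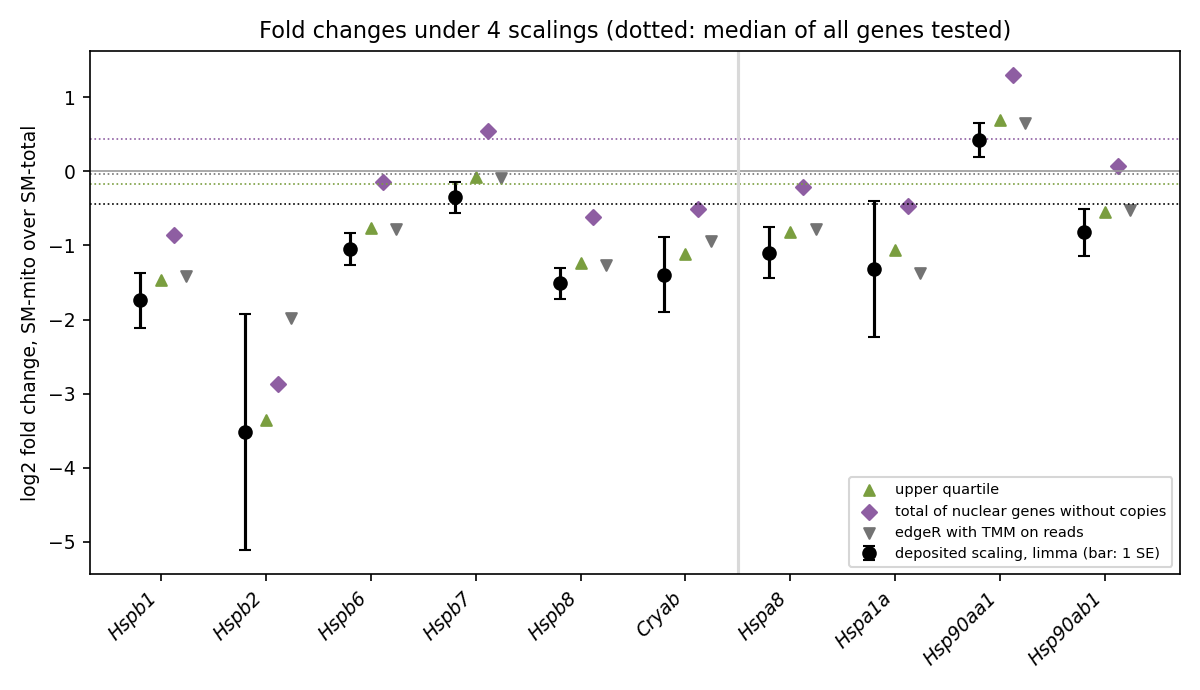
Log2 fold change of SM-mito over SM-total (vertical axis) of each member with the deposited scaling (black, bars of 1 SE from limma) and under scaling to the upper quartile (green), to nuclear genes (purple) and in edgeR (grey); dotted lines of the same colours mark the median of all genes tested. Hspb6 and Hspb8 pass the test with the deposited scaling, at -1.04 and -1.51, and Hspb7 and Hsp90ab1 change sign under scaling to nuclear genes.

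The abundant genes whose 4 values were nearest to those of Hspb6 and Hsp90ab1 came from several pathways. By Euclidean distance of log2 values over the 4 libraries, Naca, a chaperone of nascent chains at the ribosome (0.373), and Chchd10, a protein of the mitochondrial intermembrane space (0.406), were nearest to Hspb6. Naca had 946 and 897 in SM-total and 299 and 410 in SM-mito, and Chchd10 had 976 and 935 against 434 and 460. Nearest to Hsp90ab1 were Atp5a1, a subunit of ATP synthase (0.331), Pgam2, the muscle phosphoglycerate mutase (0.507), and Ahnak, a large scaffold protein (0.569). With 4 libraries in 2 groups, such likeness reflects level and the group difference alone.

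The wider chaperone network held 88 genes, of which 85 were in the table and 71 were tested, and 9 passed as lower and 5 as higher in SM-mito (limma), which is 12.7% and 7.04% of those tested beside 9.30% and 7.32% of all genes. Its median log2 fold change was -0.56, near that of all genes. Without SM-total replicate 1 or 2, 2 passed as lower and 1 as higher, against 32 and 14 without SM-mito replicate 1 and 35 and 13 without SM-mito replicate 2. Some co-chaperones that work with the members were among the lower genes. Of 9 Hsp70 co-factors tested, 3 passed as lower and 0 as higher (limma), with a median log2 fold change of -0.20. Of 15 Hsp90 co-chaperones tested, 1 passed as lower and 1 as higher (median -0.90), and of 13 cytosolic J proteins 2 and 0 (median -1.07). Unc45b, the Hsp90 partner that folds myosin in muscle, fell by 2.41 on the log2 scale, from 514 and 549 normalized counts in SM-total to a mean of 101 in SM-mito. Synpo2, a Z-disc protein of the Bag3 pathway, fell by 2.17 from 1194 and 1060 to a mean of 249, and Bag3 itself fell by 1.21 from 244 and 238 to 118 and 91. Unc45b and Synpo2 passed in all 15 alternatives and Bag3 in 10 of 15. Such counts include scaling to all genes, under which all 71 chaperone genes tested passed as lower. Bag6, which guards proteins bound for membranes, fell by 1.12, Dnajb6, a J protein of the Z-disc, by 1.54, Dnajc21, which acts in ribosome assembly, by 1.87, and Hspa4, an Hsp110 that exchanges nucleotide on Hsp70, by 0.98. Dnajb6 passed in 7 of 14 alternatives and Hspa4 in 7 of 15, and neither did without SM-total replicate 1 or 2. Hsf1, the main heat shock factor, had 58 and 52 in SM-total and 9 and 10 in SM-mito and passed as lower. Its SM-mito values, however, rest on 1 and 2 reads (pooled ratio 0.177, counting interval 0.0365 to 0.517). Hsf1 did not pass without SM-total replicate 1 or 2, nor under scaling to nuclear genes (limma adjusted p = 0.0687). Its lowest adjusted p (limma, 7.45e-05) came from scaling to all genes. Like Hspb2 and Hspa1a, Hsf1 had passed the filter only through SM-total. The 2 other small heat shock genes in the table, Hspb3 (22 and 25 in SM-total, mean 2.5 in SM-mito) and Hspb11, were too low to be tested.

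The relatives of the large members in other compartments gave a different picture. Of 10 chaperones of the endoplasmic reticulum tested, 4 passed as higher in SM-mito and none as lower (beside 7.32% and 9.30% of all genes; 0 lower by unadjusted p, and 0 by edgeR or DESeq2), and their median log2 fold change was 0.87. Hsp90b1, the Hsp90 of the reticulum, had 175 and 187 in SM-total and 516 and 536 in SM-mito (log2 fold change 1.53). Calr, a calcium-binding lectin chaperone (1.07), and the disulphide isomerases Pdia3 (1.997) and Pdia4 (2.34) were the other 3. All 4 turned negative when libraries were scaled to all genes. They passed as higher in 14 (Pdia4), 12 (Pdia3), 12 (Hsp90b1) and 11 (Calr) of 15 alternatives. Hspa5, the Hsp70 of the reticulum, had 150 and 196 in SM-total and 226 and 298 in SM-mito but missed the threshold (0.60, limma adjusted p = 0.187). The fifth higher gene of the network was Fkbp5, an immunophilin that binds Hsp90 and responds to glucocorticoids (1.77).

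Within each library, Hsp90b1 stood at 0.0824 and 0.0878 times Hsp90ab1 in SM-total and at 0.570 and 0.336 times in SM-mito, and Hspa5 at 0.145 and 0.174 times Hspa8 in SM-total and 0.609 and 0.436 times in SM-mito. The groups did not overlap in either ratio, and the fibroblast and macrophage markers given above were higher in the same libraries. Of 9 mitochondrial chaperones tested, 1 passed as lower, Hspa9, the Hsp70 that draws proteins into the matrix, with 610 and 588 in SM-total and 335 and 319 in SM-mito (log2 fold change -0.87, and 0.022 under scaling to nuclear genes). That count stands beside 9.30% of all genes called lower. Hspa9 passed in 8 of 15 alternatives, among them DESeq2 and scaling to all genes but not edgeR, and not without SM-total replicate 1 or 2. None passed as higher (1 of 9 by unadjusted p in edgeR and in DESeq2, 0 in limma), and the median was -0.56. The ratio of Hspa9 to Hspa8 overlapped between the groups (0.589 and 0.523 against 0.903 and 0.467), while that of Trap1, the Hsp90 of the matrix, to Hsp90ab1 did not (0.0772 and 0.0774 against 0.0895 and 0.0954). Trap1 rested on 9 and 30 reads in SM-mito and was not called (log2 fold change -0.56, limma adjusted p = 0.327). No interval was computed for these ratios, so a difference beyond counting error was not tested.

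**Figure D5:**
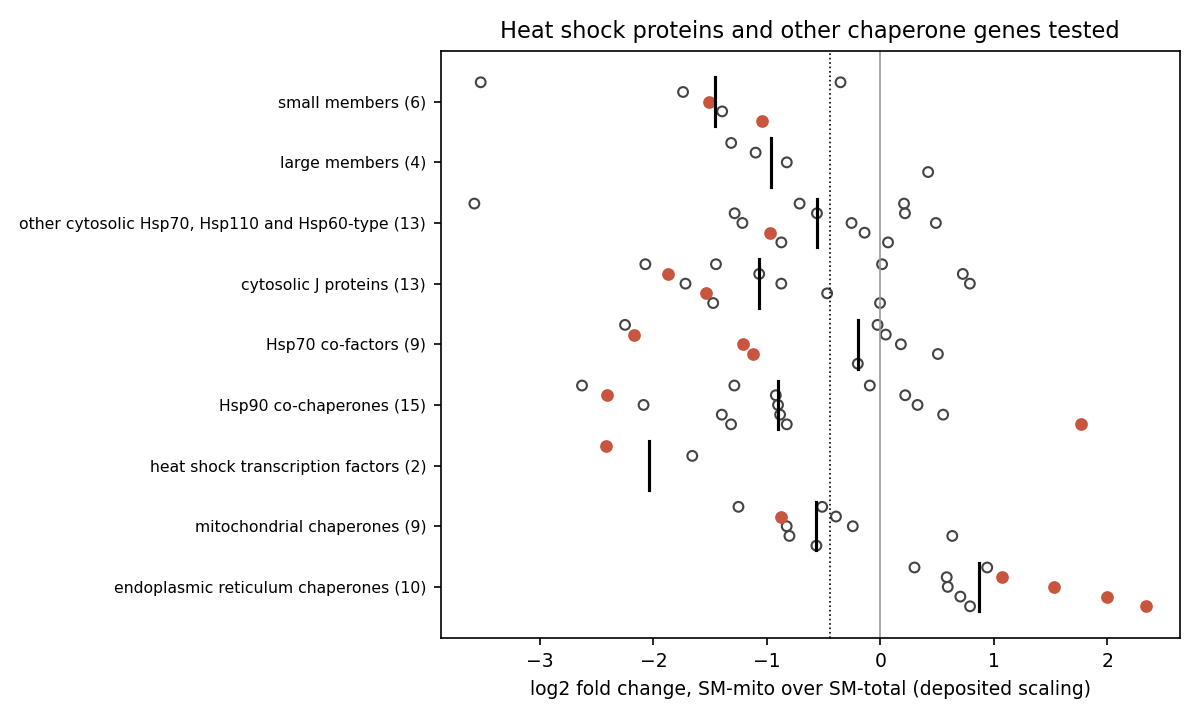
Log2 fold change of SM-mito over SM-total with the deposited scaling (horizontal axis) of the members and of the 71 other chaperone genes tested, by class with the number tested in brackets; filled red points passed the limma test, black bars are class medians and the dotted line is the median of all genes (-0.44). The median of the small members lies at -1.45 and that of the endoplasmic reticulum chaperones at 0.87.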

How the data were processed

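Skeletal muscle RNA of SM-mito and SM-total was sequenced with a stranded kit for small inputs, with the fragmentation time adjusted for mitochondrial RNA, so that fragmentation and group cannot be told apart. The submitters' processing notes name Trimmomatic 0.39, STAR 2.7.10a, featureCounts 2.0.2 and DESeq2 1.30.1. The unit of the deposited table is a normalized signal. The authors had divided gene counts by a size factor per library and rounded them. Low values of SM-mito (under 2000) equalled whole multiples of what 1 read was worth, rounded to whole numbers as deposited (99.95% of 10508 and 99.97% of 11660 values), so whole reads were recovered there. Reads of SM-total were estimated.

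Groups and replicate numbers came from the labels. log2(value + 1) was fitted with limma 3.58.1 (R 4.3.3, trended eBayes) for 6916 genes with a mean of at least 20, with Benjamini-Hochberg adjustment and a threshold of 0.05. On this scale the pseudocount understates changes of low genes, whereas a 0 in 1 library gives a larger change than the ratio of the means. The script was tested on simulated data. Alternatives were pseudocounts, filters, scalings, a replicate block, single libraries left out, edgeR 4.0.16 and DESeq2 1.42.0 on recovered or estimated reads. Near-identical transcripts were searched with BLAST 2.17.0 in GENCODE M21. Members, gene lists, tests and the genes named (members, called chaperones without overlap, 3 nearest genes of Hspb6 and of Hsp90ab1, of which 1 is not reported here) were chosen with earlier results of these data known, and Nr4a3, Pck1, Hspb3 and Hspb11 were named after their values were seen.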

Additional observations from a re-analysis of the deposited data

How the results depend on the processing

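The main counts were 2 members lower and 0 higher, 9 and 5 genes of the chaperone network, and 643 and 506 of all genes, with limma and the deposited scaling. Without 1 library in turn, 0 to 7 members, 2 to 35 chaperone genes and 176 to 3198 of all genes were lower, and 1 to 14 chaperone genes and 296 to 1724 of all genes were higher. A group left with 1 library was assumed to vary like the other. Hspa1b ranged from -0.87 without SM-total replicate 1 to 1.29 without SM-total replicate 2. Leaving out a library changed the sign of no other named gene.

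Scaling to all genes gave 10 members, 71 chaperone genes and 6694 of all genes lower, 0 chaperone genes and 38 of all genes higher, and turned Hsp90aa1 (-6.34), Hspa1b (-6.20), Pdia4 (-4.43), Pdia3 (-4.81), Fkbp5 (-4.99), Hsp90b1 (-5.33) and Calr (-5.79). Scaling to nuclear genes gave 0 members, 2 chaperone genes and 183 of all genes lower, 1 member, 11 chaperone genes and 1107 of all genes higher, and turned Hspb7 (0.54), Hsp90ab1 (0.070), Hspa9 (0.022), Atp5a1 (0.028) and Pgam2 (0.00125). The upper quartile gave 1 member and 4 chaperone genes lower. Subtracting the median of all genes, an alternative chosen after seeing the data, turned Hspb7 to 0.091. Without a filter 1 member, 15 chaperone genes and 3026 of all genes were lower, and with a mean of at least 100 there were 305 of all genes higher. Without a trend in eBayes 0 members, 3 chaperone genes and 374 of all genes were lower and 3 chaperone genes higher. edgeR called 8 chaperone genes and 1106 of all genes higher, and DESeq2 10 and 1404. The cause was not tested.

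The replicate block gave 5 members lower (Cryab, Hspa8, Hspb1, Hspb6 and Hspb8), 16 chaperone genes and 1144 of all genes, and ended the calls of Hspa4 and Hspa9. Deviations of samples with the same number correlated at 0.141 over 6862 genes in both pairs, a value that is the same for both by construction with 2 pairs, so the samples were taken to share only a number.

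With all genes off chromosome M as the denominator, the members held 231 ppm of reads in SM-mito, and with all genes 12.9 ppm in SM-mito and 2477 ppm in SM-total. Without the most abundant member of each class, small over large members was 0.896 in SM-mito and 1.06 in SM-total. For the 31 named genes, 365 alternative values kept their direction and their side of the threshold, 75 lost a call, 39 gained one and 14 changed sign.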
